A study of Mus musculus with 10 samples.

Results

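The enzymes that make and break down sphingolipids were described in KPN1.1 flank tumors that grew in obese mice given liraglutide or vehicle. The members were a list of 49 genes matched by mouse gene symbol, and all 49 were among the 55401 genes of the count table. Of these, 44 passed the filter on low counts and were tested among 17464 genes. The 5 that did not were Sptlc3, Degs2, Fa2h, St8sia1 and Ugt8a. The members were grouped by step into 12 genes of de novo synthesis, 3 ORMDL regulators, 9 glycosphingolipid genes, 7 sphingomyelin genes, 9 ceramidase and sphingosine phosphate genes and 9 genes of lysosomal breakdown.

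KPN1.1 is a mouse lung adenocarcinoma line that carries the NINJA construct, and all tumors came from that line injected in the flank. The hosts were diet-induced obese male C57BL/6J mice aged 7 to 17 weeks at injection. Liraglutide, a glucagon-like peptide-1 receptor agonist used against diabetes and obesity, was given intraperitoneally every day once tumors were palpable, at 0.2 μg per g of body weight to 5 mice, and 5 mice received PBS as vehicle. Tumors were taken on days 19 to 22, and RNA from 1 frozen fragment of each was depleted of ribosomal RNA and sequenced, so a value is that of a whole tissue fragment with its stroma and blood cells.

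Sphingolipids are built on a sphingoid base that serine palmitoyltransferase makes from serine and palmitoyl-CoA in the endoplasmic reticulum. Ceramide synthases add a fatty acid to this base, a desaturase turns dihydroceramide into ceramide, and ceramide then becomes glucosylceramide and gangliosides or sphingomyelin in the Golgi. Lysosomal hydrolases and their activator proteins take these lipids apart, ceramidases release sphingosine, and sphingosine kinases and the lyase decide between the signaling lipid sphingosine phosphate and its irreversible removal. In tumors ceramide is best known for growth arrest and cell death, and sphingosine phosphate for survival, vessel growth and the traffic of lymphocytes.

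The tumors held 9927942 to 14480593 counts each. No tumors of a group shared their counts within sampling noise, since the chi-square per degree of freedom over genes was 9.53 or more in every pair. Nothing in the labels says more of how the mice were handled in parallel, so p-values measure the spread between these tumors. The keratins Krt8, Krt18 and Krt19 were abundant in every tumor, with Krt8 at 1631 to 3294 CPM (counts scaled to a library of 1000000), whereas the alveolar marker Sftpc was at 0 to 5.96 CPM and Epcam at 0.163 to 4.63 CPM. In bulk tissue, fewer cells of a type and less RNA per cell cannot be told apart. The libraries were made by a strand-marking kit, but whether the counting used strand is not given in the sources used here, and Ormdl2, Sgpp2, B4galnt1, Sphk2, Smpd2, Arsa, Cers2 and Gba2 share 23.3% to 56.6% of their exon bases with a gene on the other strand.

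No gene passed an adjusted p of 0.05 in edgeR's quasi-likelihood test of liraglutide against vehicle, which is 0% of the 17464 tested, and the smallest adjusted p over all genes was 0.482. DESeq2 called 52 genes, of which 0 were members. At an unadjusted p under 0.05, 694 genes (3.97%) were higher with liraglutide and 981 (5.62%) were lower. Scaled by library size alone, the same split was 990 higher and 619 lower. Among the 44 members, 2 were higher at that level, Cers4 and Degs1, and 1 was lower, Sptssa. The 5 tumors of one group lay beyond all 5 of the other for 106 genes higher with liraglutide (0.607%) and 155 lower (0.888%), and for 1 member, Cers4. Read against the same percentages of 44 genes, these member counts are close to the background, and no member passed the adjusted test.

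The log2 fold change of liraglutide over vehicle was above 0 for 29 of the 44 tested members (65.9%) and below 0 for 15, with a median of 0.12. Over all genes tested it was above 0 for 47.4%, with a median of -0.02. By step, the median was 0.14 for de novo synthesis, -0.06 for the ORMDL regulators, 0.07 for glycosphingolipid genes, 0.27 for sphingomyelin genes, 0.27 for ceramidase and sphingosine phosphate genes and 0.07 for lysosomal breakdown. Leaving out 1 tumor gave medians of 0.04 to 0.16 for de novo synthesis, 0.03 to 0.21 for glycosphingolipid genes, 0.16 to 0.46 for sphingomyelin genes, 0.16 to 0.32 for ceramidase and sphingosine phosphate genes and 0.01 to 0.20 for lysosomal breakdown, with the highest without vehicle tumor 5 in each but the sphingosine phosphate step. With 1 surrogate variable in the fit, the median of the sphingomyelin genes was 0.06, that of the ceramidase and sphingosine phosphate genes 0.05 and that of all members 0.04. The median of the glycosphingolipid genes turned to -0.004 in that fit, and that of the ORMDL regulators was -0.20. Leaving out 1 tumor gave -0.18 (without vehicle tumor 2) to 0.03 (without vehicle tumor 4) for the ORMDL regulators, above 0 in 2 of these fits, and 0.08 (without vehicle tumor 2) to 0.21 (without vehicle tumor 5) for all members.

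**Figure D1:**
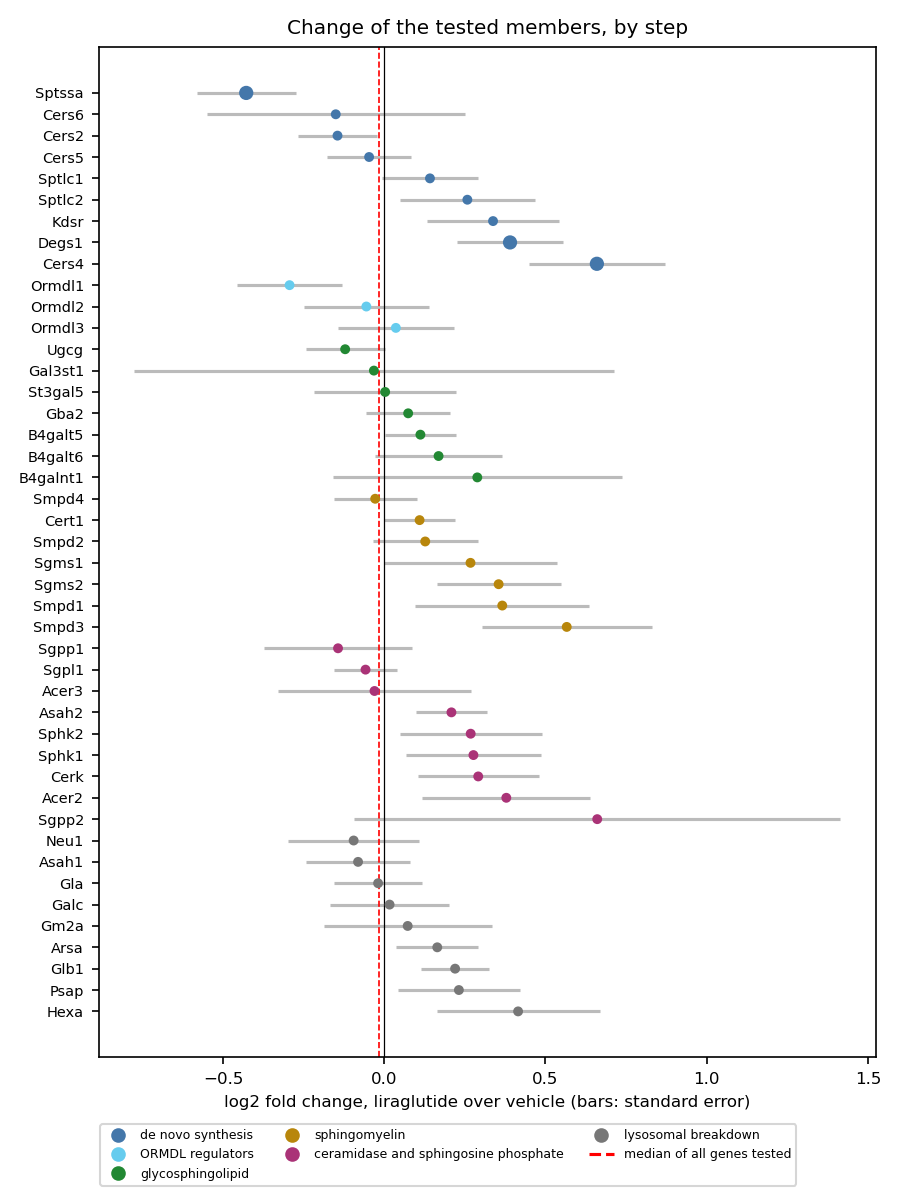
Fitted log2 fold change of liraglutide over vehicle (horizontal axis) for the 44 tested members, colored by step, with bars for the standard error and larger points for an unadjusted edgeR p under 0.05. Most points lie to the right of the dashed median of all genes (-0.02), and the 3 larger points, Cers4, Degs1 and Sptssa, all belong to de novo synthesis.

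Levels between genes were compared as CPM per kilobase of exon, averaged over the 10 tumors. The highest members were the lysosomal genes Psap at 140 and Asah1 at 59.9, followed by the lactosylceramide synthase gene B4galt6 at 43.6 and the ceramide synthase gene Cers2 at 41.2. Ugcg stood at 24.4, Degs1 at 20.4, Smpd3 at 19.2, Cert1 at 18.1, Sptlc2 at 16.9, Sgpl1 at 16.2 and Sptssa at 15.7, a stretch in which the ranges of neighbors over the tumors overlapped. The lowest tested members were Cers4 at 0.165 and Acer2 at 0.261 on the same scale.

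**Figure D2:**
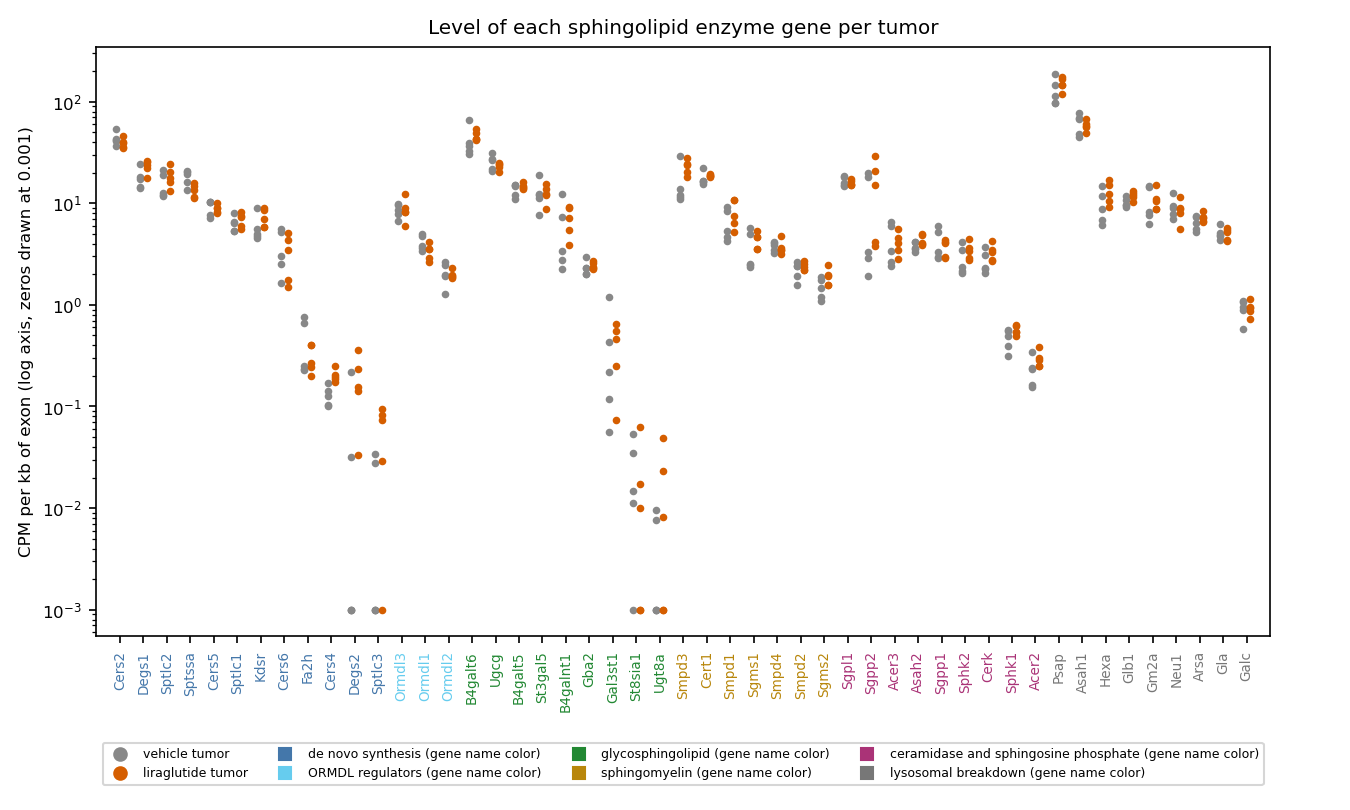
CPM per kilobase of exon (log axis) of each of the 49 members in the 5 vehicle and 5 liraglutide tumors, ordered by mean level within each step; values of 0 are drawn at 0.001. Psap and Asah1 lead, while Cers4, Acer2 and Gal3st1 are the low members that were tested.

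The untested members had few counts, where a limit of 3 counts is 0.207 to 0.315 CPM in these tumors. Sptlc3, an alternative catalytic subunit of serine palmitoyltransferase, had 0 to 3 counts per tumor. Ugt8a, which makes galactosylceramide, had 0 to 7 counts, and St8sia1, which adds a further sialic acid to gangliosides, had 0 to 8. Degs2, a desaturase and hydroxylase of dihydroceramide, had 0 to 10 counts, and Fa2h, the fatty acid hydroxylase, had 7 to 28. Fa2h was above that limit in every tumor, at 0.605 to 2.28 CPM, and the other 4 were at or below it in some tumors. The alternatives without the filter, which covered all 49 members, called none of these 5 genes at an unadjusted p under 0.05.

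In de novo synthesis, 5 of 9 tested genes had a log2 fold change above 0 and 4 below. The serine palmitoyltransferase subunit gene Sptlc1 was at 34.7, 34.6, 41.4, 52.2 and 42.7 CPM in vehicle tumors 1 to 5 and at 36.6, 38.9, 54.2, 47.9 and 49.1 CPM in liraglutide tumors 1 to 5. The groups overlapped throughout (log2 fold change 0.14 ± 0.15 SE, edgeR adjusted p = 0.753), and the log2 fold change was 0.07 without liraglutide tumor 3 and 0.25 without vehicle tumor 4. Sptlc2, the catalytic partner, was at 149, 141, 139, 224 and 250 CPM with vehicle and at 155, 189, 238, 211 and 286 CPM with liraglutide. Vehicle tumors 4 and 5 stood with the upper liraglutide tumors, and the log2 fold change was 0.26 ± 0.21 SE (edgeR adjusted p = 0.689). It was 0.14 without liraglutide tumor 5, 0.41 without vehicle tumor 5 and 0.04 with 1 surrogate variable in the fit.

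Sptssa, the small subunit that raises the activity of serine palmitoyltransferase, had a log2 fold change of the opposite sign. It was at 32.0, 32.4, 30.4, 25.3 and 21.1 CPM in vehicle tumors 1 to 5, and at 21.1, 25.1, 17.7, 23.2 and 17.9 CPM in liraglutide tumors 1 to 5. Vehicle tumors 1 to 3 lay above every liraglutide tumor, vehicle tumor 4 just above the highest of them, and vehicle tumor 5 among them. The mean was 28.2 ± 4.91 CPM with vehicle and 21.0 ± 3.24 CPM with liraglutide (SD, n = 5 each). The log2 fold change was -0.43 ± 0.15 SE, with an unadjusted edgeR p of 0.0171 and an adjusted p of 0.482, and the two-sided exact permutation p was 0.0317. Over the alternative settings the adjusted p ran from 0.235 to 0.9.

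Cers2, the ceramide synthase for very long fatty acids and the most abundant of its family here per length, was at 209, 219, 189, 219 and 278 CPM with vehicle and at 180, 183, 238, 205 and 201 CPM with liraglutide. The ranges overlapped, with vehicle tumor 5 the highest (log2 fold change -0.14 ± 0.12 SE, edgeR adjusted p = 0.695). Without vehicle tumor 5 the log2 fold change was -0.05, and with 1 surrogate variable it was -0.24, with an unadjusted edgeR p of 0.0382 and an adjusted p of 0.401.

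Cers4, a ceramide synthase for long to very long fatty acids, was at 1.73, 1.42, 2.31, 1.92 and 1.38 CPM in vehicle tumors 1 to 5 and at 2.68, 3.43, 2.81, 2.55 and 2.38 CPM in liraglutide tumors 1 to 5. All 5 liraglutide tumors lay above all 5 vehicle tumors, though liraglutide tumor 5 and vehicle tumor 3 were 0.072 CPM apart. These are small numbers, 14 to 42 counts per tumor. The mean was 1.75 ± 0.383 CPM with vehicle and 2.77 ± 0.4 CPM with liraglutide (SD, n = 5 each), a log2 fold change of 0.66 ± 0.21 SE. The edgeR p was 0.00944 and the adjusted p 0.482, and over the alternative settings the adjusted p ran from 0.217 to 0.9. The two-sided exact permutation p of 0.00794 is the smallest that 5 against 5 tumors can give. Summed over 4 keratinocyte markers, liraglutide tumor 2, the highest in Cers4, had 200 CPM, and liraglutide tumors 4 and 5 had 76.2 and 49.9 CPM, against 6.65 and 6.82 CPM in liraglutide tumors 1 and 3 and 8.36 to 17.6 CPM with vehicle. The 5 skeletal muscle markers summed to 29.6 to 232 CPM with vehicle and 57.0 to 280 CPM with liraglutide. The part of skin or muscle RNA in the Cers4 values was not tested.

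Degs1, the desaturase that turns dihydroceramide into ceramide, was at 53.1, 53.8, 64.7, 91.9 and 68.0 CPM with vehicle and at 84.0, 66.8, 89.2, 97.8 and 96.8 CPM with liraglutide. Vehicle tumor 4 lay among the liraglutide tumors, and liraglutide tumor 2 lay among the vehicle tumors. The mean was 66.3 ± 15.7 CPM with vehicle and 86.9 ± 12.6 CPM with liraglutide (SD, n = 5 each). The log2 fold change was 0.39 ± 0.16 SE (edgeR adjusted p = 0.512, 0.18 to 0.9 over the alternative settings), and the two-sided exact permutation p was 0.0635. Its unadjusted p was under 0.05 in 12 of 20 fits, against 20 of 20 for Cers4 and for Sptssa. With 1 surrogate variable the log2 fold change was 0.23 for Degs1 and -0.26 for Sptssa.

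The remaining tested genes of the step were Kdsr, which reduces the first keto intermediate, and the palmitoyl ceramide synthases Cers5 and Cers6, with log2 fold changes of 0.34, -0.05 and -0.15. Cers6 varied widely within each group, from 15.4 to 52.0 CPM with vehicle and from 14.2 to 47.6 CPM with liraglutide.

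The 250 bases before the transcription start of Sptssa, Cers4 and Degs1 are shown because these were the members with an unadjusted p under 0.05. The sequences are from RefSeq on build GRCm38.p6, on the strand of the gene and ending at the base before the start. They lie at chr12:54656573-54656822 (minus strand), chr8:4493155-4493404 (plus strand) and chr1:182282196-182282445 (minus strand). Capitals mark GC boxes (GGGCGG on either strand) and the palindromic E-box CACGTG, the letters that many basic helix-loop-helix factors bind.

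Sptssa: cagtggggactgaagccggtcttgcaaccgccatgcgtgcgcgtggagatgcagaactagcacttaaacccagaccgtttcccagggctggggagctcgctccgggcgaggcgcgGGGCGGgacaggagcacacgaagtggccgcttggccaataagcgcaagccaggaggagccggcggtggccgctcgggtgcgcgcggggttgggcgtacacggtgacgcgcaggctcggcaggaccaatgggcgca

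Cers4: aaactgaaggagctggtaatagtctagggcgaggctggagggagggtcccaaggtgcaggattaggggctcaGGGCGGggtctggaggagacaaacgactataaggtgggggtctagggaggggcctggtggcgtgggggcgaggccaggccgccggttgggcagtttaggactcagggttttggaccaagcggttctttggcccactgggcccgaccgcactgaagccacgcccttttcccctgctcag

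Degs1: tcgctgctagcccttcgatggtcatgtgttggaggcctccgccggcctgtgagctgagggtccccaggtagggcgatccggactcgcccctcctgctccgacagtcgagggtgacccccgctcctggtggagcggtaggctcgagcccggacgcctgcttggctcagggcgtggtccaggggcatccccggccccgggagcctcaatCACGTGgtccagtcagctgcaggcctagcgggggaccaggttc

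Sptssa held a GC box 135 bases before the start and Cers4 held one 178 bases before it, while neither window held the E-box letters. Degs1 held an E-box 43 bases before the start and no GC box. None of the 3 windows held TATAAA. A match is a description of letters and not a site of binding.

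The 3 ORMDL proteins hold serine palmitoyltransferase back when ceramide is plentiful. Ormdl1 was at 18.03, 16.7, 23.6, 24.9 and 18.98 CPM with vehicle and at 17.6, 13.1, 17.6, 20.7 and 14.4 CPM with liraglutide. Only vehicle tumors 3 and 4 lay above all liraglutide tumors (log2 fold change -0.29 ± 0.16 SE, edgeR adjusted p = 0.577). Ormdl3, the most abundant of the family per length, was at 32.2, 41.2, 46.1, 47.4 and 37.3 CPM with vehicle and at 39.5, 28.4, 58.6, 43.1 and 39.7 CPM with liraglutide. The lowest and the highest tumor both had liraglutide, and the log2 fold change was 0.04 ± 0.18 SE (edgeR adjusted p = 0.959). Its sign turned in 3 of the alternative settings. Ormdl2 had a log2 fold change of -0.06. Within a tumor, the log2 ratio of Sptlc2 to Ormdl3 was taken in CPM per kilobase of exon. It was 0.82 ± 0.45 with vehicle and 1.08 ± 0.40 with liraglutide (SD over the 5 tumors of a group), and the groups overlapped.

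**Figure D3:**
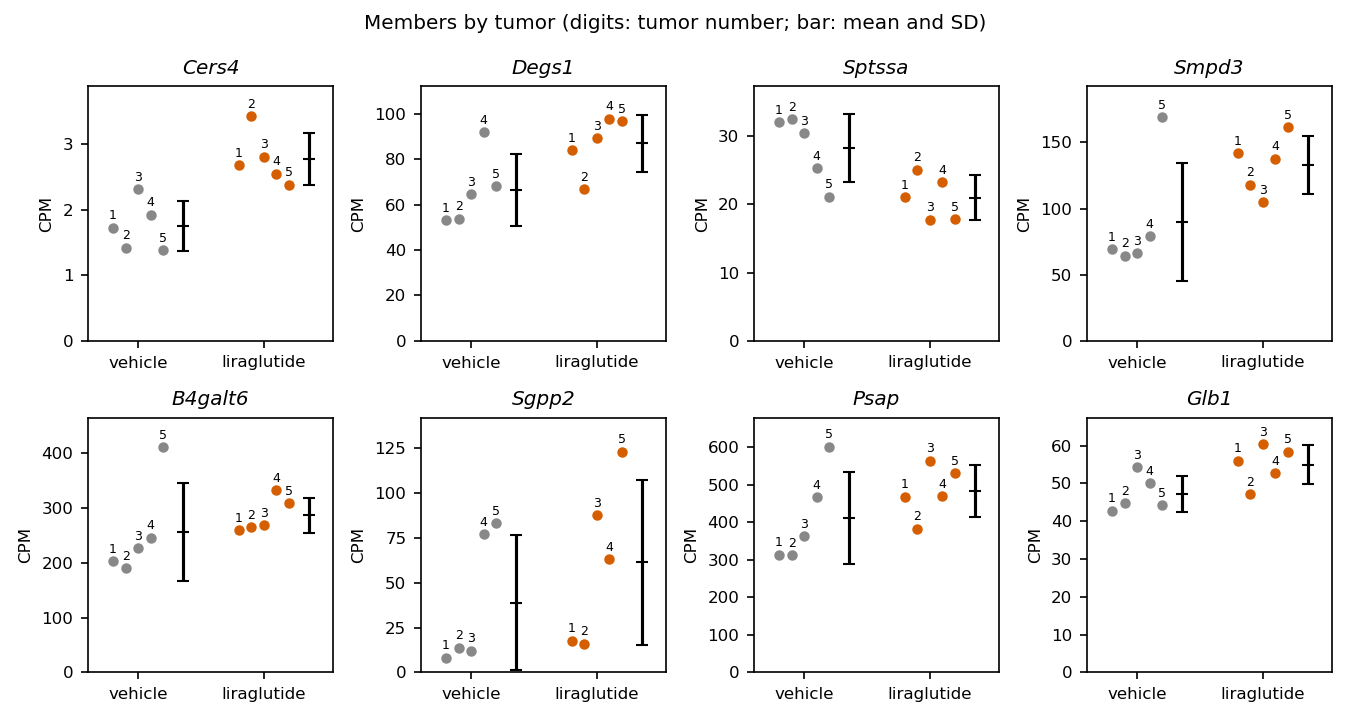
CPM (vertical axes, from 0) of 8 members in each vehicle and liraglutide tumor, with the tumor number above each point and the group mean and SD beside the points. Cers4 does not overlap between groups, vehicle tumor 5 stands apart in Smpd3 and B4galt6, and Sgpp2 splits each group into low and high tumors.

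Among the glycosphingolipid genes, 5 of 7 tested had a log2 fold change above 0, and the smallest edgeR p was 0.329. Ugcg, which makes glucosylceramide and so opens the branch, was at 152, 156, 180, 118 and 126 CPM with vehicle and at 144, 141, 118, 139 and 131 CPM with liraglutide. The groups overlapped, and the highest values were in vehicle tumors 1 to 3 (log2 fold change -0.12 ± 0.12 SE, edgeR adjusted p = 0.743). It was -0.03 without vehicle tumor 3, -0.18 without vehicle tumor 4 and -0.004 with 1 surrogate variable.

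Lactosylceramide is made by the products of B4galt5 and B4galt6. B4galt5 was at 67.4, 54.5, 67.3, 50.04 and 67.7 CPM with vehicle and at 62.2, 73.3, 66.6, 64.1 and 65.7 CPM with liraglutide, and the ranges overlapped (log2 fold change 0.11 ± 0.11 SE, edgeR adjusted p = 0.737, and a log2 fold change of 0.05 without vehicle tumor 4). B4galt6, the most abundant gene of the branch per length, was at 203, 190, 226, 246 and 410 CPM with vehicle and at 259, 265, 269, 332 and 309 CPM with liraglutide. Vehicle tumor 5 lay above every other tumor, and the other 4 vehicle tumors lay below all liraglutide tumors. The log2 fold change was 0.17 ± 0.20 SE (edgeR adjusted p = 0.778). Without vehicle tumor 5 it was 0.41, with an unadjusted edgeR p of 0.00457 and an adjusted p of 0.303. It was 0.08 without vehicle tumor 2, 0.10 without vehicle tumor 1 and 0.02 with 1 surrogate variable.

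Of the ganglioside genes, St3gal5, which adds the first sialic acid, had a log2 fold change of 0.00, and B4galnt1, which extends gangliosides, had one of 0.29. B4galnt1 ranged from 17.8 to 97.9 CPM with vehicle and from 30.3 to 72.1 CPM with liraglutide. Gal3st1, the sulfatide synthase, spanned 0.622 to 13.4 CPM with vehicle and 0.816 to 7.20 CPM with liraglutide, and its log2 fold change of -0.03 had a SE of 0.74. Gba2, the glucosylceramidase outside the lysosome, had a log2 fold change of 0.07. The treatment difference in B4galnt1 and Gal3st1 was small beside the spread within each group.

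The sphingomyelin genes had a log2 fold change above 0 in 6 of 7 and an adjusted p no smaller than 0.527. Smpd3, a neutral sphingomyelinase that releases ceramide at the Golgi and plasma membrane, was at 69.4, 64.4, 66.3, 79.2 and 169 CPM with vehicle and at 142, 118, 105, 138 and 162 CPM with liraglutide. All liraglutide tumors lay above vehicle tumors 1 to 4, whereas vehicle tumor 5 was the highest of all. The mean was 89.6 ± 44.7 CPM with vehicle and 133 ± 22.04 CPM with liraglutide (SD, n = 5 each). The log2 fold change was 0.57 ± 0.26 SE, with an edgeR p of 0.0544, an adjusted p of 0.527 and a two-sided exact permutation p of 0.0556. Without vehicle tumor 5 the log2 fold change was 0.93, the unadjusted edgeR p 3.93e-05 and the adjusted p 0.233, and in the fits that left out another tumor it was 0.47 to 0.64.

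Sgms1 encodes the Golgi sphingomyelin synthase and Smpd1 the lysosomal sphingomyelinase. Sgms1 was at 44.0, 46.0, 47.4, 94.3 and 107 CPM with vehicle and at 66.9, 65.95, 87.8, 87.1 and 100 CPM with liraglutide. Vehicle tumors 1 to 3 were the lowest and vehicle tumor 5 the highest (log2 fold change 0.27 ± 0.27 SE, edgeR adjusted p = 0.742). Smpd1 was at 14.5, 15.7, 18.3, 30.9 and 28.5 CPM with vehicle and at 21.9, 17.8, 36.8, 25.6 and 36.9 CPM with liraglutide, with a log2 fold change of 0.37 ± 0.27 SE (edgeR adjusted p = 0.66). With 1 surrogate variable the log2 fold change was 0.02 for Sgms1 and 0.04 for Smpd1. That of Sgms1 was 0.15, 0.16 and 0.17 without vehicle tumors 1, 2 and 3 in turn and 0.43 and 0.50 without vehicle tumors 4 and 5, and over the fits that left out 1 tumor that of Smpd1 was 0.25 to 0.54. Both genes were low in vehicle tumors 1 to 3 and high in vehicle tumors 4 and 5. Within a tumor, the log2 ratio of Sgms1 to Smpd1 was taken in CPM per kilobase of exon. It was -0.86 ± 0.19 with vehicle and -0.87 ± 0.25 with liraglutide (SD over the 5 tumors of a group).

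Ugcg and Sgms1 draw on the same ceramide. Their log2 ratio, Ugcg over Sgms1 in CPM per kilobase of exon, was 3.49, 3.46, 3.63, 2.03 and 1.94 in vehicle tumors 1 to 5. It was 2.81, 2.80, 2.13, 2.38 and 2.10 in liraglutide tumors 1 to 5. Vehicle tumors 1 to 3 had the highest ratios and vehicle tumors 4 and 5 the lowest, so that the vehicle group enclosed the liraglutide group. Of the other genes, Sgms2, the sphingomyelin synthase of the plasma membrane, had a log2 fold change of 0.35, Cert1, which carries ceramide from the endoplasmic reticulum to the Golgi, 0.11, and the neutral sphingomyelinases Smpd2 and Smpd4 0.13 and -0.03.

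Among the ceramidase and sphingosine phosphate genes, 6 of 9 had a log2 fold change above 0. Asah2, the neutral ceramidase, was at 42.7, 39.7, 50.2, 50.2 and 43.7 CPM with vehicle and at 47.1, 47.8, 58.3, 49.0 and 59.5 CPM with liraglutide. Liraglutide tumors 3 and 5 lay above all vehicle tumors and the rest overlapped (log2 fold change 0.21 ± 0.11 SE, edgeR adjusted p = 0.566). The Golgi ceramidase gene Acer2, with 14 to 39 counts per tumor, had a log2 fold change of 0.38 ± 0.26 SE, and the alkaline ceramidase gene Acer3 one of -0.03.

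Sphingosine kinase Sphk1 was sparse, with 21 to 46 counts per tumor. Its level was 1.73, 3.14, 2.20, 3.10 and 2.77 CPM with vehicle and 2.76, 3.02, 3.49, 3.40 and 2.98 CPM with liraglutide, and the groups overlapped (log2 fold change 0.28 ± 0.21 SE, edgeR adjusted p = 0.667, and a log2 fold change of 0.16 without vehicle tumor 1). Sgpl1, the lyase that ends the pathway, was at 122, 120, 97.3, 99.7 and 104 CPM with vehicle and at 101, 113, 98.9, 110 and 98.8 CPM with liraglutide. It was among the steadiest members, with a 1.25-fold span over the 10 tumors and a log2 fold change of -0.06 ± 0.10 SE (edgeR adjusted p = 0.852). In CPM per kilobase of exon, the log2 ratio of Sphk1 to Sgpl1 was -5.18 ± 0.43 with vehicle and -4.82 ± 0.16 with liraglutide (SD over the 5 tumors of a group). The groups overlapped, and vehicle tumor 1 was the lowest at -5.90. For Sphk1 to the phosphatase gene Sgpp1 the log2 ratio on that scale was -3.09 ± 0.49 with vehicle and -2.69 ± 0.20 with liraglutide, again with overlap.

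Sgpp2, a sphingosine phosphate phosphatase described here because of its spread once its values had been seen, was at 8.15, 13.9, 12.1, 77.2 and 83.2 CPM in vehicle tumors 1 to 5 and at 17.7, 16.1, 87.6, 63.3 and 123 CPM in liraglutide tumors 1 to 5. It lay at or below 17.7 CPM in vehicle tumors 1 to 3 and liraglutide tumors 1 and 2 and at or above 63.3 CPM in the others. The highest tumor exceeded the lowest 15.1-fold, while the treatment difference was 0.66 ± 0.75 SE on the log2 scale (edgeR adjusted p = 0.774), which turned to -0.10 with 1 surrogate variable and was 0.25 without liraglutide tumor 5 and 1.15 without vehicle tumor 5. Of its exon bases, 32% overlap Farsb on the other strand. The remaining genes were the kinase Sphk2, the ceramide kinase Cerk and the phosphatase Sgpp1, with log2 fold changes of 0.27, 0.29 and -0.14, and 30.9% of the exon bases of Sphk2 are shared with the ribosomal protein gene Rpl18.

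In lysosomal breakdown, 6 of 9 genes had a log2 fold change above 0, and the smallest edgeR p was 0.0598. That was Glb1, the beta-galactosidase of gangliosides, at 42.8, 44.7, 54.4, 50.04 and 44.2 CPM with vehicle and at 56.1, 47.3, 60.4, 52.7 and 58.4 CPM with liraglutide. Liraglutide tumors 1, 3 and 5 lay above every vehicle tumor, and tumors 2 and 4 among them. The log2 fold change was 0.22 ± 0.11 SE, the adjusted p 0.533 and the two-sided exact permutation p 0.0476.

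Psap encodes the precursor of the saposins, the activator proteins that present lipids to several of these hydrolases. It was at 314, 312, 364, 467 and 602 CPM with vehicle and at 468, 383, 564, 469 and 532 CPM with liraglutide, with vehicle tumor 5 the highest of all (log2 fold change 0.23 ± 0.19 SE, edgeR adjusted p = 0.689). Without vehicle tumor 5 it was 0.42, with an unadjusted edgeR p of 0.0231 and an adjusted p of 0.327. It was 0.15 without vehicle tumor 1 and without vehicle tumor 2, and 0.03 with 1 surrogate variable. Asah1, the acid ceramidase, was at 291, 314, 448, 507 and 444 CPM with vehicle and at 442, 322, 390, 367 and 374 CPM with liraglutide. The vehicle group held both its lowest and its highest values (log2 fold change -0.08 ± 0.16 SE, edgeR adjusted p = 0.877).

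The other hydrolase genes were Hexa, the alpha chain of hexosaminidase, with a log2 fold change of 0.42 ± 0.25 SE, Gm2a, its ganglioside activator, with 0.07, Arsa, the sulfatidase, with 0.16, Galc, the galactosylceramidase, with 0.02, Gla, the alpha-galactosidase, with -0.02, and Neu1, a sialidase, with -0.09. The smallest unadjusted edgeR p among them was 0.128, in Hexa.

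Promoter windows were listed for 44 of the 49 members, and a gene counted as holding a motif if any of its listed windows did. The E-box letters CACGTG were in 10 of the 44 (22.7%) against 6.86% of 27025 genes with a listed promoter, and by step in 3 of 11 members of de novo synthesis, 2 of 6 sphingomyelin members, 2 of 9 ceramidase and sphingosine phosphate members, 3 of 8 lysosomal members and none of the 7 glycosphingolipid or 3 ORMDL members. GGGCGG or its reverse complement was in 32 (72.7%) against 35.4%. The median GC content of the windows was 63% for members and 52.4% for all genes. No motif count, that of the E-box included, was adjusted for it or for the number of windows per gene. CCAAT on either strand was in 18 (40.9%) against 37.5%, and TATAAA in 1 (2.27%) against 14.3%. The windows around the E-box of the 3 lysosomal members that hold one are shown as examples, not because the step stood apart, on the strand of the gene and with the E-box in capitals.

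Arsa: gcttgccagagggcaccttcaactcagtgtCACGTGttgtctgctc

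Gla: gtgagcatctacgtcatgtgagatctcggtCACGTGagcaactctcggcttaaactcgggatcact

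Glb1: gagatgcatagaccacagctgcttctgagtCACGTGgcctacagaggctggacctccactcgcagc

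These stretches lie, on GRCm38.p6 of RefSeq, at chr15:89477425-89477470 (minus strand), chrX:134601164-134601229 (minus strand) and chr9:114401000-114401065 (plus strand). The E-box stood 16 bases before the start in Arsa, 194 and a further one 227 bases before it in Gla, and 48 bases before it in Glb1. The fold changes of the 3 genes, 0.16, -0.02 and 0.22 on the log2 scale, did not share a direction.

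Members also differed between tumors of the same group. After each gene was set to a mean of 0 and an SD of 1 over the 10 tumors, the median of the 44 members was -1.04, -1.02, -0.46, 0.33 and 0.55 in vehicle tumors 1 to 5 and -0.13, -0.25, 0.71, 0.30 and 0.60 in liraglutide tumors 1 to 5. The median over all genes tested stayed between -0.04 and 0.07 in every tumor. Vehicle tumors 1 to 3 were the lowest, and vehicle tumors 4 and 5 lay among liraglutide tumors 3 to 5.

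**Figure D4:**
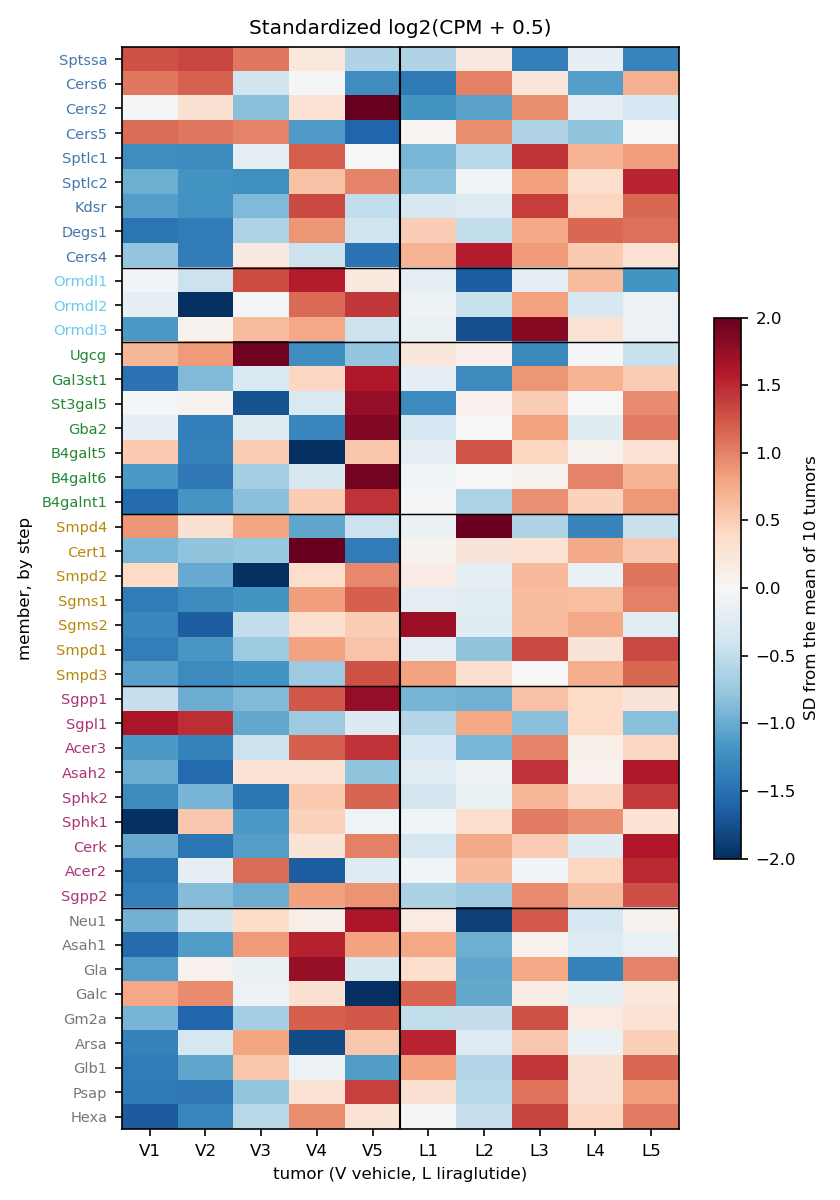
Level of the 44 tested members (rows, by step) in the 10 tumors (columns), as log2(CPM + 0.5) in SD from the mean of each gene. The sphingomyelin and sphingosine phosphate rows are mostly blue (below the mean) in vehicle tumors 1 to 3 and red (above it) in vehicle tumors 4 and 5 and liraglutide tumors 3 to 5, with Sgpl1 among the exceptions, whereas the lysosomal median is below the mean in liraglutide tumor 4, at -0.13.

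By step, the sphingosine phosphate genes had medians of -1.15, -0.93, -1.0, 0.46 and 0.90 with vehicle and -0.34, -0.11, 0.66, 0.39 and 1.29 with liraglutide. The lysosomal genes had medians of -1.35, -1.03, -0.11, 0.30 and 0.53 with vehicle and 0.35, -0.58, 1.09, -0.13 and 0.48 with liraglutide. Both steps were low in vehicle tumors 1 and 2. In the glycosphingolipid genes vehicle tumor 5 was the highest at 1.60 and vehicle tumor 2 the lowest at -1.18, and in the ORMDL genes liraglutide tumor 2 was the lowest at -1.65.

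The summed CPM of 4 leukocyte markers was 69.3, 60.8, 91.9, 141 and 137 in vehicle tumors 1 to 5 and 84.5, 83.9, 144, 131 and 142 in liraglutide tumors 1 to 5. This sum, of which Ptprc was the largest part, split the tumors as Sgpp2 did, and so did Ptprc and Cd52 on their own. Laptm5 and Coro1a did not, since a tumor low in Sgpp2 lay above one high in Sgpp2 in each (Laptm5 in vehicle tumors 3 and 4, Coro1a in liraglutide tumors 1 and 4). The T and NK cell markers summed to 3.66, 4.26, 5.04, 12.8 and 19.7 CPM with vehicle and 5.10, 11.0, 24.0, 15.1 and 21.4 CPM with liraglutide. None of the 4 leukocyte markers had an unadjusted edgeR p under 0.05, and none of the 5 tested T and NK cell markers did. Of the keratinocyte markers, Krt5, Krt14 and Krt1 did, each higher with liraglutide. Of the 7 epithelial and lung adenocarcinoma markers, 4 had a log2 fold change above 0, and their sum was 4624, 5207, 7350, 5942 and 9716 CPM with vehicle and 6625, 4729, 7032, 6735 and 5506 CPM with liraglutide, with vehicle tumor 3 the second highest of all. Epcam was highest in vehicle tumor 1, and Krt8, Krt18 and Krt19 had log2 fold changes of -0.26, -0.23 and -0.33. Chosen from the list after its values were seen, Cdh1, the epithelial cadherin, was lowest in vehicle tumors 1 to 3. It was at 560, 617, 814, 1417 and 2236 CPM with vehicle and at 1440, 966, 1969, 1708 and 1711 CPM with liraglutide. The lung lineage gene Nkx2-1 was at 17.7 to 26.6 CPM in vehicle tumors 1 to 3 and at 52.2 to 132 CPM in the others, with a log2 fold change of 0.99 by treatment (unadjusted edgeR p of 0.0495, edgeR adjusted p of 0.52). Of the 7 macrophage and monocyte markers, 6 had a log2 fold change above 0 and none an unadjusted edgeR p under 0.05. Their sum was 572 to 1117 CPM with vehicle and 606 to 784 CPM with liraglutide. The 1 with a log2 fold change below 0 was the mannose receptor gene Mrc1, at 673, 724, 761, 312 and 217 CPM in vehicle tumors 1 to 5 and at 340, 457, 284, 339 and 190 CPM in liraglutide tumors 1 to 5 (log2 fold change -0.74 ± 0.35 SE, unadjusted edgeR p of 0.0564, edgeR adjusted p of 0.529). Without Mrc1 the sum was 241, 234, 356, 424 and 355 CPM with vehicle and 281, 253, 500, 375 and 416 CPM with liraglutide, lowest in vehicle tumors 1 and 2 and liraglutide tumors 1 and 2. The 6 fibroblast markers moved the other way within the vehicle group, with a sum of 3291, 3461, 2964, 1374 and 1393 CPM in vehicle tumors 1 to 5 and 3508, 1856, 2345, 3082 and 3203 CPM in liraglutide tumors 1 to 5. The 5 endothelial markers summed to 106, 138, 151, 88.6 and 95.4 CPM with vehicle and 107, 94.3, 115, 118 and 123 CPM with liraglutide, also lower in vehicle tumors 4 and 5 than in vehicle tumors 1 to 3. None of the fibroblast or endothelial markers had an unadjusted edgeR p under 0.05. The part of leukocytes, macrophages, fibroblasts, endothelial cells or the epithelial state in the member values was not tested.

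**Figure D5:**
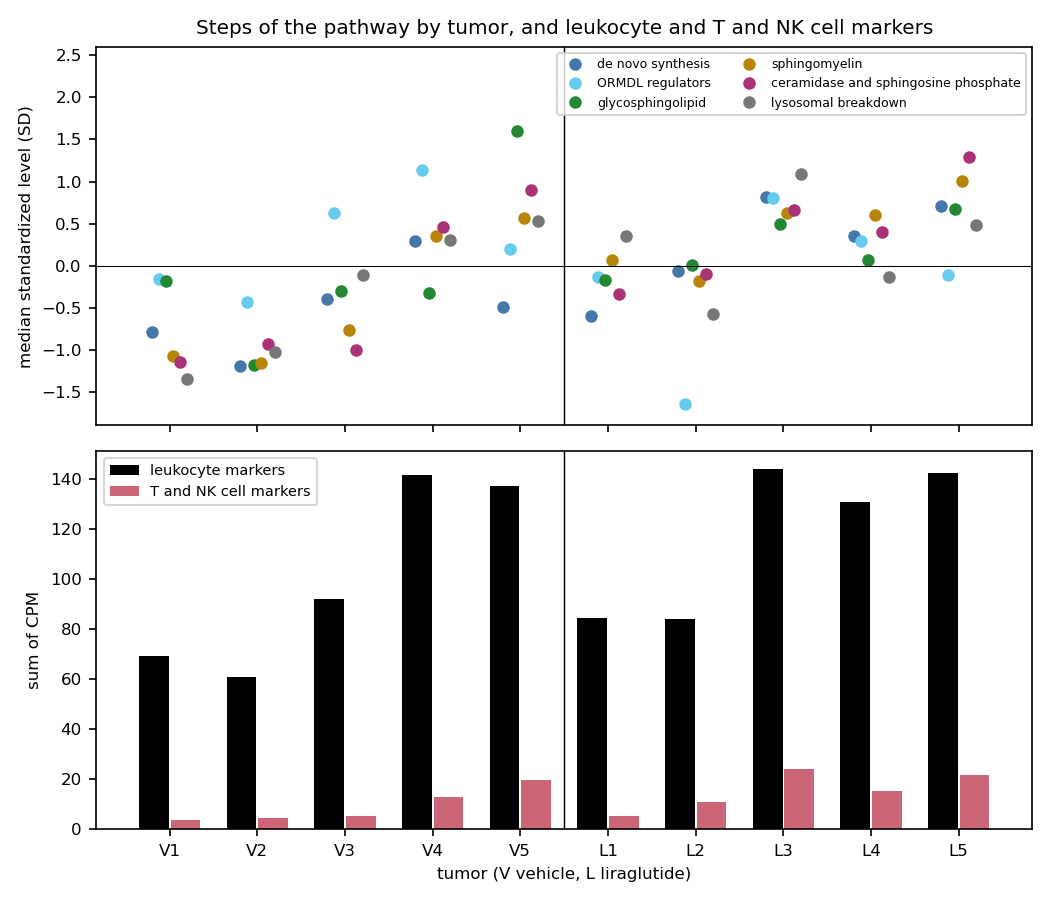
Median standardized level of the tested members of each step (top, in SD) and the summed CPM of 4 leukocyte and 6 T and NK cell markers (bottom) in each tumor. Vehicle tumors 1 to 3 are low in most steps and in leukocyte markers, and vehicle tumors 4 and 5 are higher in most steps and in leukocyte markers.

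Most members were more scattered in the vehicle group. The SD of log2(CPM + 0.5) was larger with vehicle than with liraglutide in 37 of 44 members (84.1%), against 70.6% of all genes tested, and its median over members was 0.33 with vehicle and 0.22 with liraglutide. In the 7 glycosphingolipid genes it was larger with vehicle in all 7, at a median of 0.44 against 0.16, and in the 3 ORMDL genes in 1, at a median of 0.24 against 0.25. In the other steps it was larger with vehicle in 8 of 9 genes of de novo synthesis, 6 of 7 sphingomyelin genes, 8 of 9 ceramidase and sphingosine phosphate genes and 7 of 9 lysosomal genes.

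Of 42 further genes of the pathway, 34 were tested, and 24 had a log2 fold change above 0. No adjusted p was under 0.05, and the unadjusted edgeR p was under 0.05 for 2 higher genes and 1 lower gene, close to the 3.97% and 5.62% of all genes tested. S1pr2, a sphingosine phosphate receptor, was at 17.2, 15.8, 19.4, 19.1 and 10.7 CPM with vehicle and at 20.9, 19.998, 22.8, 19.6 and 23.2 CPM with liraglutide, so that the groups did not overlap, by 0.225 CPM, as in 0.607% of all genes tested in that direction (log2 fold change 0.38 ± 0.16 SE, edgeR adjusted p = 0.512). Ctsa, the protease that shields Glb1 and Neu1 in the lysosome, had a log2 fold change of 0.29 ± 0.12 SE (edgeR adjusted p = 0.515). Vapa, the endoplasmic reticulum anchor of the ceramide carrier, had one of -0.25 ± 0.11 SE (edgeR adjusted p = 0.515), with 4 of 5 liraglutide tumors below every vehicle tumor.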

How the data were processed

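Total RNA of tumor fragments was depleted of ribosomal RNA and sequenced as paired reads. The authors aligned the reads with Bowtie and TopHat and deposited whole-number counts per gene from featureCounts, which were used as deposited. The paper names GRCm39, whereas the submitters' processing notes list mm10 and GRCh38, and the annotation release and strand setting are not given in the sources used here. Samples were grouped by their titles. The study's methods state that samples were removed at quality control, and those were not analysed here. Symbols and exon lengths came from GENCODE M39, which matched 51731 of 55401 gene IDs (93.38%) holding 98.31% of counts, although 35 carried the same version number.

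The main test was edgeR's quasi-likelihood test (edgeR 4.0.16, R 4.3.3) after filterByExpr and TMM scaling, with Benjamini-Hochberg adjustment over all 17464 genes. CPM used the TMM-scaled library sizes, and log2 values carried an offset of 0.5 CPM. Exact permutation tests were two-sided on mean log2 values of 5 against 5 tumors, with a smallest p of 0.00794. The calling threshold was 0.05. The alternatives were DESeq2 1.42.0, limma-voom 3.58.1, other scalings and filters, a robust fit, a replicate block, 1 surrogate variable (sva 3.50.0) and leaving out each tumor. The test scripts were tested on simulated data. Values in every tumor were given for members with an unadjusted p under 0.05 or no overlap, for those with the smallest p or highest level per length in each step, and for enzymes that start a branch or end the pathway. The members, lists and this rule were chosen with earlier results of these data known. Promoter sequences are from RefSeq (GRCm38.p6). The total counts per tumor bound the precision of low genes, and the limit of 3 counts covers counting error only.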

Additional observations from a re-analysis of the deposited data

Results flagged for a closer look

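Within the 2 groups of 5 tumors, 54 sets of values were screened for a tumor far from the rest. They were the members given per tumor, apart from Sgpp2, and the step medians. Of the 54, 2 were flagged, which is no more than the about 1 in 20 that chance gives. Both were in vehicle tumor 5. Smpd3 was at 168.9 CPM there against 64.4 to 79.2 CPM in the other vehicle tumors, a gap of 0.858 of the range. B4galt6 was at 410.2 CPM there against 190.3 to 245.7 CPM in the other vehicle tumors, a gap of 0.748 of the range.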

How the results depend on the processing

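Over 9 alternative settings and 10 fits that each left out 1 tumor, no member passed an adjusted p of 0.05. Over all genes, the count past it was 52 with DESeq2 and 0 otherwise. The count of members at an unadjusted p under 0.05, 3 in the report, was 6 with library size alone, 5 with at least 10 counts in every tumor, 6 with the replicate block, 6 with 1 surrogate variable (1 higher, 5 lower), and 2 to 9 without 1 tumor (6 without vehicle tumor 4, 9 without vehicle tumor 5). The share of all genes at that level was 9.59% in the report and 9.21%, 10.4%, 14.8% and 11.4% in those 4 settings, 15.2% without vehicle tumor 4 and 13.5% without vehicle tumor 5, against 20.5% of the members in the last. Members without overlap, 1 in the report, numbered 1 to 4 without 1 tumor: 2 without vehicle tumor 3 (4.55%, against 2.3% of all genes), 3 without vehicle tumor 4 (6.82%, against 4.6%) and 4 without vehicle tumor 5 (9.09%, against 3.57%), where 4 tumors against 5 overlap less readily than 5 against 5. With 1 surrogate variable the log2 fold change of Ormdl3 was -0.10, of Sgpp2 -0.10, of Sgpl1 0.012 and of Sptlc1 -0.013, each of the opposite sign to the report. Leaving out 1 tumor gave -0.11 to 0.16 for Ormdl3 and -0.18 to 0.027 for Asah1, which was above 0 without vehicle tumor 4. The cause of these shifts was not tested, except that fewer tumors were fitted where 1 was left out. Of the 21 members given per tumor, the other 16 kept their sign in these fits. Whether tumor numbers pair the samples is not given in the labels. Deviations from the group means correlated between same-numbered tumors at 0.354, 0.566, -0.0753, 0.0681 and 0.389, and not every tumor correlated best with its own number. Tumors of different numbers also correlated, as vehicle tumor 1 with liraglutide tumor 2 at 0.56, so these values cannot decide the pairing. The replicate block, which called 0 genes, had 2585 genes at an unadjusted p under 0.05 against 1675 without it. Among tested members the lowest counts were in Gal3st1 (9 in 1 tumor), Cers4 and Acer2 (14 each).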
